A study of Mus musculus with 6 samples.

Results

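The genes described here encode the SNARE proteins, the synaptotagmins and the priming proteins of regulated exocytosis, measured by RNA sequencing in mouse pancreatic islets. They are the 71 protein-coding rows, of 54556 rows in the deposited expression table, whose symbol belongs to the Stx (syntaxin), Snap, Vamp, Stxbp (syntaxin-binding), Syt (synaptotagmin), Sytl (synaptotagmin-like), Unc13, Rims, Doc2 or Cplx (complexin) series. The rule reads the symbol and no expression value, although the families were picked with earlier results of these data known, and 2 pseudogenes with matching symbols were left out. The group labelled β-Mettl3-KO held 3 libraries from mice with a floxed Mettl3 allele on both chromosomes and RIP-Cre, that is, Cre recombinase under the rat insulin promoter. The other group held 3 libraries from Mettl3 flox/flox mice without a labelled Cre. Mice of both groups were C57BL/6, were fed normal chow and were 8 weeks of age. METTL3 is the enzyme at the core of the complex that methylates adenosines of mRNA at the N6 position (m6A).

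An insulin granule fuses with the plasma membrane when an R-SNARE on the granule (a VAMP) zippers with a syntaxin and a SNAP-25 protein on the target membrane. Munc18 proteins (such as Stxbp2 and Stxbp3) hold and guide the syntaxin, Munc13 (Unc13), RIM and Doc2 proteins prepare the docked granule, complexins clamp the partly assembled complex, and synaptotagmins sense the calcium that enters when the β cell depolarises. Synaptotagmin-like proteins tether granules through the small GTPase Rab27, and granuphilin, the product of Sytl4, is the one best known in β cells. The same families also serve endosomes, the Golgi apparatus, autophagosomes and the lytic granules of lymphocytes, so that not every gene listed here acts on insulin granules.

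GGACT is a common form of the consensus at which the METTL3 complex is known to place m6A, so that motif was searched on the sense strand of the coding sequences (GENCODE M21 transcripts, GRCm38). The windows below hold the copy nearest the end of the coding sequence in 3 genes that were lower in the libraries labelled knockout (Sytl4, Sytl1, Stxbp2) and in 2 that were higher (Syt16, Unc13d). They are printed 5′ to 3′ on the coding strand, 21 bases each, with every GGACT in capitals.
Sytl4: gaagtggtGGACTggatggat
Sytl1: ccagccgtGGACTgctgtctc
Stxbp2: ctgattgcGGACTtccaggga
Syt16: tgctggtgGGACTgtcctaca
Unc13d: GGACTgacGGACTgtgcagag
In GRCm38 the Sytl4 window lay in exon 17 of 17 at chrX:133938016-133938036 on the minus strand, and the Sytl1 window in exon 12 of 15 at chr4:133255767-133255787 on the minus strand. The Stxbp2 window lay in exon 5 of 19 at chr8:3633860-3633880 on the plus strand. The Syt16 window lay in exon 6 of 7 at chr12:74238272-74238292 on the plus strand, and the Unc13d window in exon 31 of 32 at chr11:116063691-116063711 on the minus strand. Each window was in coding sequence, and a match is a description of the letters only, since no methylation was measured here. The coding sequence of Sytl4 held 5 copies in 2019 bases, that of Sytl1 3 copies in 1704 bases and that of Rims3 0 copies in 921 bases. Of 48 tested genes of these families with a coding sequence in the annotation, 38 held GGACT (79.2%), against 9059 of all 11855 tested protein-coding genes (76.4%). It was present in 3 of the 3 higher genes, 8 of the 12 lower genes and 27 of the 33 that did not pass the test.

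Recovered reads came to between 16719393 and 18387313 in the libraries labelled knockout and between 16398862 and 17691055 in the flox/flox libraries. The 6 islet hormone genes summed to 122729 to 141734 FPKM in the libraries labelled knockout and to 266767 to 333717 FPKM in flox/flox libraries, so both groups carried the defining transcripts of islets. FPKM counts fragments per kilobase of a gene, divided by a measure of library size. Mettl3 mRNA was no lower where the label says knockout: it had 4.06, 4.20 and 4.15 FPKM in those libraries and 3.42, 2.89 and 3.93 FPKM in flox/flox libraries, a log2 difference of 0.25 ± 0.11 (SE, adjusted p = 0.12). The counts span the whole gene, and removal of some exons cannot be read from them, so every direction below is that of libraries labelled knockout. No group with RIP-Cre alone was analysed here, and effects of Cre itself and of a recombined Mettl3 allele cannot be told apart.

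Markers of other cells differed between the groups. The 11 B-cell and plasma-cell markers summed to 1277 to 1984 FPKM in the libraries labelled knockout and to 16.3 to 33.4 FPKM in flox/flox libraries, and 11 of 11 were higher. The 11 T-cell and cytotoxic-cell markers summed to 28.2, 60.8 and 42.0 FPKM in the libraries labelled knockout and to 4.26, 1.58 and 1.64 FPKM in flox/flox libraries, where Gzmb and Prf1 were at 0, and 7 of 7 tested were higher. Enterocyte markers summed to 135, 863 and 449 FPKM in the libraries labelled knockout and to 50.5 to 56.0 FPKM in the flox/flox libraries, where Alpi, Guca2b and Krt20 were at 0, and 15 of 16 tested were higher. Acinar markers summed to 340 to 631 FPKM in the libraries labelled knockout and to 748 to 2305 FPKM in the others (9 of 11 tested lower). Endothelial markers summed to 316 to 359 FPKM in the libraries labelled knockout and to 616 to 637 FPKM in the others (9 of 9 lower). Neural and Schwann-cell markers summed to 12.4 to 16.6 FPKM in the libraries labelled knockout and to 25.8 to 27.9 FPKM in the others (2 of 4 tested lower). Of 4 tested enteroendocrine markers Chgb was higher and Neurod1 lower, and flox/flox libraries also held both, at 352 to 370 and 81.8 to 88.2 FPKM. Gip, which did not pass, and Cck, under the filter, were above flox/flox in every library labelled knockout, and the remaining enteroendocrine markers overlapped. Of the 6 islet hormone genes 0 were higher and 2 lower. These were Ins1 (70.2% lower) and Ins2 (59.3% lower), while Sst did not pass and Gcg, Iapp and Ppy overlapped between the groups. The part of these cells in the results below was not tested except where a value is given. In whole islets fewer cells of a type and less RNA per cell cannot be told apart.

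Of the 71 genes, 49 had a mean of at least 1 FPKM over the 6 libraries and were tested. In the libraries labelled knockout 12 were lower, 3 were higher and 34 did not pass a limma adjusted p of 0.05, with adjustment over all 14497 tested genes. The 15 calls were 30.6% of the genes tested, below the 34.0% called among all genes, and the 12 lower ones were 24.5% against a background of 17.2%, while the 3 higher ones were 6.12% against 16.9%. The median log2 difference of the 49 genes was -0.10, against -0.005 over all tested genes, and 32 of the 49 lay below 0. The groups did not overlap for 23 of the 49 genes, 18 with the libraries labelled knockout below and 5 with them above. Such genes made up 50.5% of all tested genes, 25.4% below and 25.1% above. Of the 3 higher genes, Unc13d and Syt16 passed the filter only through the group labelled knockout, as did Syt15, so the higher count carries that selection.

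**Figure D1:**
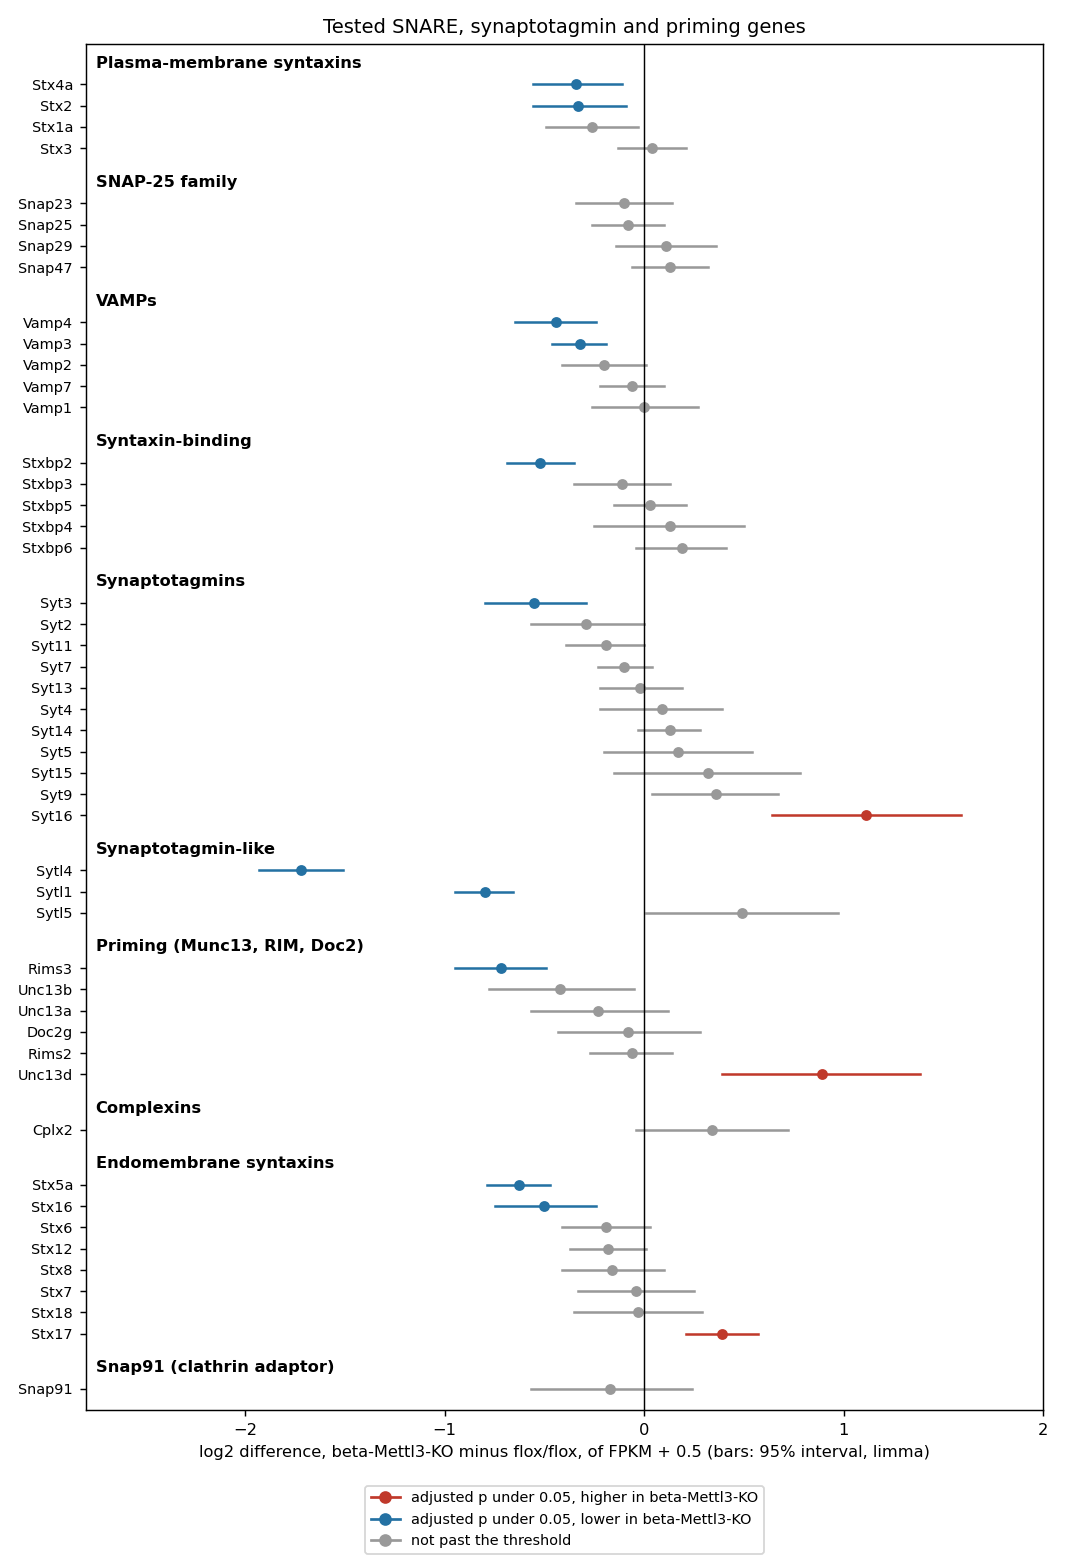
Log2 difference of FPKM + 0.5 (β-Mettl3-KO minus flox/flox, with 95% intervals from limma) for 48 of the 49 tested genes, grouped by role. The 11 lower genes shown are spread over 7 of the roles, and Sytl4 lies farthest from 0 at -1.72.

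These calls depend on the scaling. The deposited FPKM already carry a median-of-ratios scaling, which sets the typical gene to no difference. Dividing each library by its own total of reads moved the median of all tested genes by 0.36 on the log2 scale, and the libraries labelled knockout then had 22 of the 49 genes higher and 4 lower, beside 3 higher and 12 lower as deposited. Among all tested genes, 52.1% were higher and 4.94% lower on that scale. Of the 15 calls, 7 were shared by both scalings: Sytl4, Sytl1, Rims3 and Stx5a were lower under both, and Syt16, Unc13d and Stx17 were higher under both. The proportions of members within a family, given below, do not depend on this choice.

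**Figure D2:**
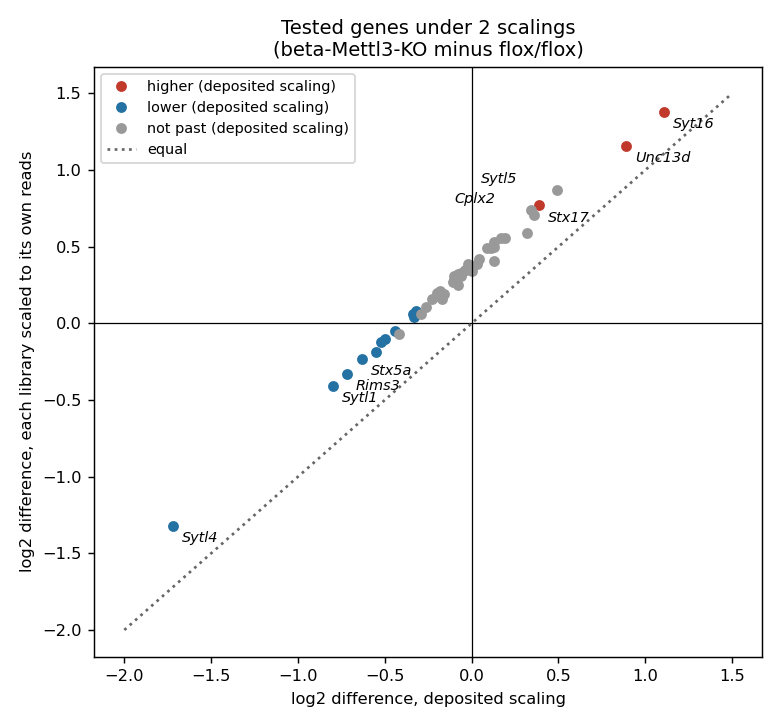
Log2 difference (β-Mettl3-KO minus flox/flox) of the tested genes with the deposited scaling on the x axis and with each library scaled to its own total on the y axis, with solid lines at 0 and a dotted line of equal values. The points lie above the dotted line, with Sytl4 at -1.72 and -1.32 and Stx2, Stx4a and Vamp3 on opposite sides of 0.

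In the deposited scaling, 2 of 3 tested granule tethers of the synaptotagmin-like family were lower in the libraries labelled knockout and 0 were higher. Among all tested genes 17.2% were lower and 16.9% higher. Sytl4 encodes granuphilin, which links Rab27a on the insulin granule to syntaxin 1A at the plasma membrane. Sytl4 (ENSMUSG00000031255, chromosome X, 133936385 to 133981812, minus strand, GRCm38) had 17.8, 21.8 and 19.1 FPKM in the libraries labelled knockout and 62.0, 67.5 and 66.5 FPKM in flox/flox libraries. Every library labelled knockout was far below every flox/flox library, and its mean of 19.6 ± 2.02 FPKM was 70.1% lower than the 65.3 ± 2.94 FPKM of flox/flox (SD, n = 3 each). The log2 difference was -1.72 ± 0.09 (SE, adjusted p = 8.56e-05). Leaving out each library in turn gave -1.80 to -1.65.

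Sytl1, a Rab27 effector also known as Slp1, had 12.7, 12.5 and 12.1 FPKM in the libraries labelled knockout and 21.7, 23.1 and 21.4 FPKM in flox/flox libraries. The groups were again apart, with little spread in either, and Sytl1 (ENSMUSG00000028860, chromosome 4, 133253090 to 133263113, minus strand) differed by -0.80 ± 0.06 on the log2 scale (SE, adjusted p = 0.000361). Sytl5, a further Rab27 effector, was at 5.71, 9.38 and 7.23 FPKM in the libraries labelled knockout and at 3.99, 5.35 and 6.00 FPKM in flox/flox libraries, and the groups overlapped. Sytl2 and Sytl3 had a mean under 1 FPKM and were not tested.

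The make-up of the family, which no scaling of a library can alter, also differed. Its summed level was 36.7, 44.5 and 39.3 FPKM in the libraries labelled knockout and 88.6, 96.8 and 95 FPKM in flox/flox libraries. Sytl4 made up 48.4%, 48.9% and 48.7% of that sum in the libraries labelled knockout, against 69.9%, 69.8% and 69.9% in flox/flox libraries. The shares hardly varied within a group, and the groups were wide apart. Sytl5 held a higher share in the libraries labelled knockout, at 15.5%, 21.1% and 18.4% of the sum in the libraries labelled knockout and 4.51%, 5.53% and 6.31% in flox/flox libraries. Outside these families, Rab27a itself was lower by 0.37 ± 0.10 on the log2 scale in the deposited scaling (SE, limma adjusted p = 0.028). It was at 38.6, 31.3 and 32.1 FPKM in the libraries labelled knockout and at 41.7, 46.6 and 43.5 FPKM in flox/flox libraries, and was named after its values were seen. Unlike the shares, this difference depends on the scaling. Of 44 tested fusion and docking genes outside these families, 13 were lower as deposited and 2 with own-total scaling.

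**Figure D3:**
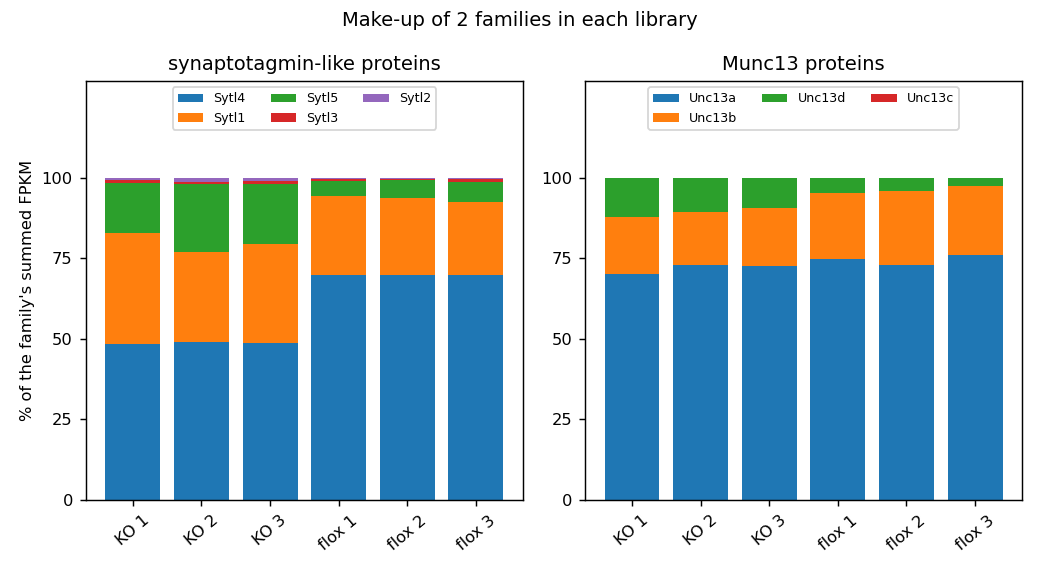
Share of the family's summed FPKM (percent, y axis) taken by each member in every library, for the synaptotagmin-like and Munc13 families, β-Mettl3-KO left of flox/flox. Sytl4 holds 48.4% to 48.9% of the synaptotagmin-like sum in the libraries labelled knockout and 69.8% to 69.9% in flox/flox libraries. Unc13d holds 9.39% to 12.1% of the Munc13 sum in the libraries labelled knockout and 2.65% to 4.69% in flox/flox libraries.

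Stx1a, Snap25 and Vamp2, which encode the best known SNAREs of insulin granule fusion, did not pass the test. Stx1a, the neuronal and β-cell syntaxin of the plasma membrane, had 4.80, 5.33 and 4.16 FPKM in the libraries labelled knockout and 5.68, 5.82 and 5.81 FPKM in flox/flox libraries. Its groups did not overlap, but its log2 difference of -0.26 (95% interval -0.49 to -0.03) had an adjusted p of 0.0798. It passed as lower with quantile normalization (-0.31, adjusted p = 0.0421) and without replicate 2 labelled knockout (-0.33, adjusted p = 0.0428). Snap25, its partner on the same membrane, was at 26.5, 24.4 and 26.3 FPKM in the libraries labelled knockout and at 29.4, 25.5 and 26.7 FPKM in flox/flox libraries. The groups overlapped, and the log2 difference was -0.08 (95% interval -0.26 to 0.10, adjusted p = 0.471).

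Vamp2, the R-SNARE of the insulin granule, had 54.3, 45.0 and 49.7 FPKM in the libraries labelled knockout and 61.0, 54.7 and 55.8 FPKM in flox/flox libraries. The highest library labelled knockout came just under the lowest flox/flox library, and the log2 difference was -0.20 (95% interval -0.41 to 0.01, adjusted p = 0.123). With own-total scaling all 3 genes turned positive, Stx1a at 0.11, Snap25 at 0.32 and Vamp2 at 0.20, and Snap25 then passed as higher (adjusted p = 0.00733). None of the 4 genes of the SNAP-25 family passed in the deposited scaling, with 95% intervals that all included 0, and their summed level was 62.8 to 69.8 FPKM in the libraries labelled knockout and 65.1 to 66.0 FPKM in flox/flox libraries. Snap91, which shares the symbol but encodes a clathrin adaptor, did not pass either.

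Of the 4 tested syntaxins of the plasma membrane, 2 were lower and 0 higher, against 17.2% and 16.9% of all tested genes. Stx4a, which serves insulin granule fusion beside syntaxin 1A, had 15.0, 18.3 and 15.3 FPKM in the libraries labelled knockout and 22.0, 19.5 and 20.1 FPKM in flox/flox libraries (log2 difference -0.34 ± 0.10, SE, adjusted p = 0.035). Stx2 had 4.50, 4.76 and 3.73 FPKM in the libraries labelled knockout and 5.59, 5.33 and 5.67 FPKM in flox/flox libraries (-0.33 ± 0.10, adjusted p = 0.043). The groups were apart for both, by a gap smaller than the range among the libraries labelled knockout. Each of these calls was lost in 5 of the 6 fits that left out 1 library (all but the one without replicate 2 labelled knockout), at an adjusted p of up to 0.12 for Stx4a and 0.118 for Stx2. With own-total scaling the differences were 0.06 and 0.04. Stx3, placed on insulin granules and the plasma membrane, overlapped between the groups at 6.40, 7.15 and 6.59 FPKM in the libraries labelled knockout and 6.76, 6.45 and 6.27 FPKM in flox/flox libraries.

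Of 5 tested VAMPs, 2 were lower and 0 higher, against the same 17.2% and 16.9% of all genes. Vamp3, the R-SNARE of recycling endosomes, had 19.7, 18.7 and 18.8 FPKM in the libraries labelled knockout and 23.8, 24.1 and 24.0 FPKM in flox/flox libraries (log2 difference -0.32 ± 0.06, SE, adjusted p = 0.00699). Vamp4, a SNARE of the trans-Golgi network and immature granules, had 11.5, 9.29 and 10.5 FPKM in the libraries labelled knockout and 14.3, 14.3 and 14.1 FPKM in flox/flox libraries (-0.44 ± 0.09, adjusted p = 0.0098). The flox/flox libraries varied little, and the groups were apart for both genes. With own-total scaling neither passed, at 0.08 for Vamp3 and -0.05 for Vamp4. Vamp2 made up 50.1% to 53.5% of the family's level in the libraries labelled knockout and 49.3% to 52.9% in flox/flox libraries, with overlapping groups. Vamp8, known as the R-SNARE of acinar zymogen granules, had 8, 11 and 12 reads in the libraries labelled knockout and 19, 24 and 8 reads in flox/flox libraries, and was not tested.

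Among the Munc18 proteins, Stxbp2 was lower in the libraries labelled knockout. Stxbp2 encodes Munc18-2, known for granule release in blood and epithelial cells, and had 17.1, 20.0 and 18.4 FPKM in the libraries labelled knockout and 26.9, 26.5 and 26.7 FPKM in flox/flox libraries. Its groups were apart, by -0.52 ± 0.07 (SE, adjusted p = 0.00295). Stxbp3, or Munc18c, the partner of syntaxin 4, was at 5.87, 6.20 and 6.59 FPKM in the libraries labelled knockout and 5.89, 7.47 and 6.99 FPKM in flox/flox libraries, with overlap.

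With own-total scaling Stxbp2 was at -0.12 and did not pass. Of the other syntaxin-binding genes, Stxbp4, Stxbp5 (tomosyn) and Stxbp6 (amisyn) did not pass. Stxbp5l was under the filter, at 71, 83 and 84 reads in the libraries labelled knockout and 144, 89 and 123 reads in flox/flox libraries.

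**Figure D4:**
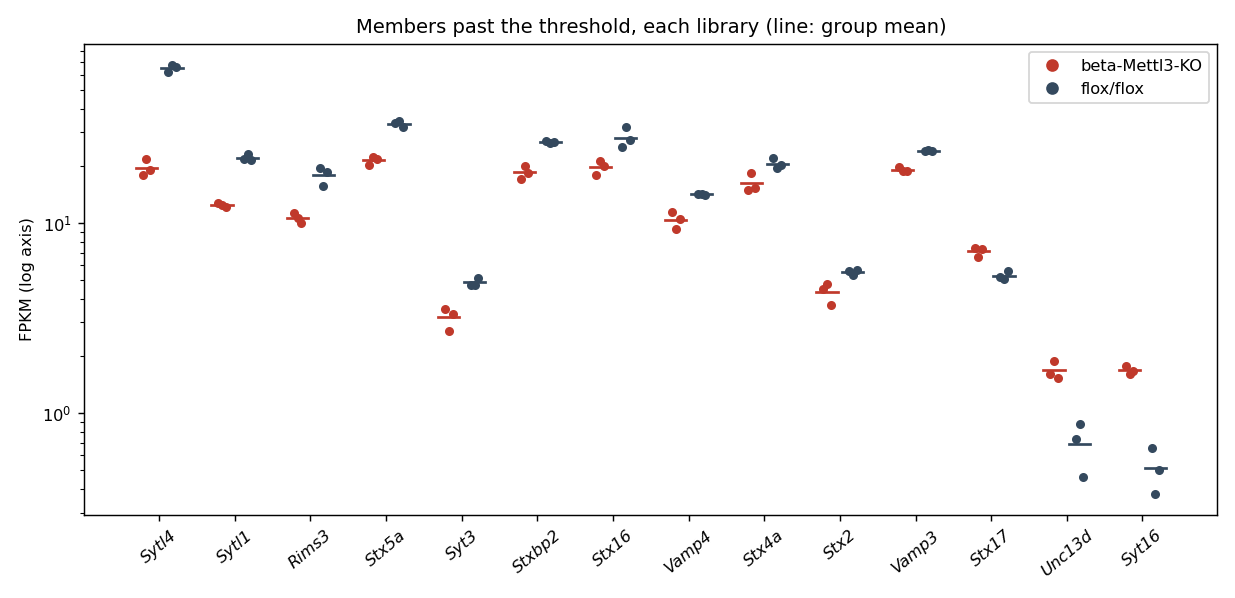
FPKM (y axis, log scale) in each library for 14 of the 15 genes past the threshold, β-Mettl3-KO left of flox/flox, with a line at each group mean. Sytl4 shows the widest gap, with 17.8 to 21.8 FPKM in the libraries labelled knockout and 62.0 to 67.5 FPKM in flox/flox libraries, and Unc13d and Syt16 are the genes shown with the lowest levels.

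The summed level of the synaptotagmins overlapped between the groups in the deposited scaling, at 425, 362 and 395 FPKM in the libraries labelled knockout and 399, 383 and 400 FPKM in flox/flox libraries. Syt13, an atypical synaptotagmin that binds no calcium, held 68.7% to 69.4% of it in the libraries labelled knockout and 67.9% to 71.2% in flox/flox libraries. Its level was 291, 251 and 274 FPKM in the libraries labelled knockout and 285, 260 and 282 FPKM in flox/flox libraries, the highest of the 71 genes, and the groups overlapped. With own-total scaling Syt13 was higher in the libraries labelled knockout, at 0.39 (adjusted p = 0.00562), and Syt4, Syt5, Syt9, Syt14 and Syt15 passed as higher too. Syt7, a calcium sensor for insulin and glucagon release, had 38.7, 37.7 and 39.3 FPKM in the libraries labelled knockout and 42.3, 40.3 and 41.2 FPKM in flox/flox libraries. The groups were apart by a small step, but the log2 difference of -0.10 (95% interval -0.23 to 0.04) did not pass (adjusted p = 0.242), and it was 0.31 with own-total scaling (adjusted p = 0.00405) and 0.02 with quantile normalization.

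Of the 11 tested synaptotagmins, 1 was lower and 1 higher, a share of 18.2%, under the background of 34.0%. Syt3, a calcium-binding member, had 3.55, 2.72 and 3.31 FPKM in the libraries labelled knockout and 4.75, 4.71 and 5.16 FPKM in flox/flox libraries. Its groups were apart, with a log2 difference of -0.55 ± 0.11 (SE, adjusted p = 0.00982) that was -0.19 and did not pass with own-total scaling. Syt16, a member that does not bind calcium, had 1.77, 1.61 and 1.66 FPKM in the libraries labelled knockout and 0.658, 0.378 and 0.501 FPKM in flox/flox libraries. These are 338, 288 and 314 reads in the libraries labelled knockout and 91, 50 and 68 reads in the others, with no overlap. The level of Syt16 (ENSMUSG00000044912, chromosome 12, 73997661 to 74273267, plus strand) was 3.28 times that of flox/flox, and the log2 difference was 1.11 ± 0.20 (SE, adjusted p = 0.00715). The calcium sensors Syt5 and Syt9 were at 20.7 to 27.9 FPKM and 3.92 to 4.70 FPKM in the libraries labelled knockout, against 18.5 to 25.8 FPKM and 2.73 to 3.91 FPKM in flox/flox libraries, and neither passed in the deposited scaling.

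The priming proteins gave 1 lower and 1 higher gene of 6 tested, a share of 33.3% that is near the 34.0% of all genes. Unc13a encodes Munc13-1, the main Munc13 of neurons and β cells, and had 9.28, 13.0 and 11.9 FPKM in the libraries labelled knockout and 11.7, 15.1 and 13.2 FPKM in flox/flox libraries. Rims2, a Rab3-binding scaffold of the docked granule, had 4.52, 4.31 and 4.73 FPKM in the libraries labelled knockout and 5.07, 4.28 and 4.88 FPKM in flox/flox libraries. Both genes overlapped between the groups, at -0.23 (95% interval -0.57 to 0.12, adjusted p = 0.274) for Unc13a and -0.06 (95% interval -0.27 to 0.14, adjusted p = 0.618) for Rims2, and with own-total scaling they were at 0.16 and 0.31, past the threshold for Rims2 alone (adjusted p = 0.0199). Rims3, which encodes a short RIM without the Rab3-binding part, had 11.3, 10.6 and 10 FPKM in the libraries labelled knockout and 19.4, 15.6 and 18.6 FPKM in flox/flox libraries. Every library labelled knockout was below every flox/flox library, and Rims3 (ENSMUSG00000032890, chromosome 4, 120854816 to 120896579, plus strand) differed by -0.72 ± 0.10 (SE, adjusted p = 0.00261).

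Unc13d encodes Munc13-4, known for the release of lytic granules by cytotoxic lymphocytes. It had 1.61, 1.89 and 1.54 FPKM in the libraries labelled knockout and 0.735, 0.873 and 0.461 FPKM in flox/flox libraries. Again no libraries overlapped, and the log2 difference was 0.89 ± 0.21 (SE, adjusted p = 0.0184). The call was lost without replicate 2 labelled knockout (0.82, adjusted p = 0.052) or without replicate 3 labelled knockout (0.93, adjusted p = 0.0596). Unc13d made up 12.1%, 10.5% and 9.39% of the Munc13 level in the libraries labelled knockout and 4.69%, 4.21% and 2.65% in flox/flox libraries. The summed T-cell and cytotoxic-cell markers were also higher in the libraries labelled knockout, at 28.2 to 60.8 FPKM beside 1.58 to 4.26 FPKM in the others. Among the libraries labelled knockout, replicate 2 was highest for both these markers and Unc13d. Among flox/flox libraries, where both were low, the markers were highest in replicate 1 and Unc13d in replicate 2. The part of the marked cells in the difference of Unc13d was not tested.

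Of the 8 tested syntaxins of internal membranes 2 were lower and 1 was higher, a share of 37.5% beside the 34.0% of all genes. Stx5a, the syntaxin of the Golgi apparatus, had 20.2, 22.3 and 21.7 FPKM in the libraries labelled knockout and 33.6, 34.5 and 31.9 FPKM in flox/flox libraries (log2 difference -0.63 ± 0.07, SE, adjusted p = 0.00115). Stx16, of the trans-Golgi network, had 18, 21.1 and 19.9 FPKM in the libraries labelled knockout and 25, 31.9 and 27.4 FPKM in flox/flox libraries (-0.50 ± 0.11, adjusted p = 0.0141). The groups were apart for both, and Stx5a passed with own-total scaling too, at -0.23 (adjusted p = 0.0329), while Stx16 at -0.10 did not. Stx17, which drives the fusion of autophagosomes with lysosomes, had 7.36, 6.65 and 7.33 FPKM in the libraries labelled knockout and 5.23, 5.08 and 5.58 FPKM in flox/flox libraries. It was higher in every library labelled knockout, by 0.39 ± 0.07 (SE, adjusted p = 0.00905). The other 5, the endosomal Stx6, Stx7, Stx8 and Stx12 and the endoplasmic reticulum syntaxin Stx18, did not pass.

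The complexins consisted almost wholly of Cplx2, which held 99.3% to 99.4% of their level in the libraries labelled knockout and 98.5% to 99.7% in flox/flox libraries. Cplx2 had 97.3, 74.6 and 88.3 FPKM in the libraries labelled knockout and 81.7, 55.8 and 69.5 FPKM in flox/flox libraries. The groups overlapped and Cplx2 did not pass in the deposited scaling, but it was higher with own-total scaling (0.74, adjusted p = 0.00571). Cplx1, the complexin of many fast synapses, had 32, 18 and 19 reads in the libraries labelled knockout and 0, 0 and 1 read in flox/flox libraries. All 3 libraries labelled knockout were above the 3 flox/flox libraries, at levels of 0.419 to 0.701 FPKM, and with 1 read in all of flox/flox no fold is given.

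Low expression kept 22 of the 71 genes out of the test. Rims1 and Syt10 were listed at 0 in the 6 libraries, which allows up to 3 reads in each for counting error alone. With no filter, 3 of the other 20 were higher and 1 was lower in the libraries labelled knockout, while among all genes under the filter 3.4% were higher and 0.668% lower. Stx11, the syntaxin of cytotoxic lymphocytes and other blood cells, had 90, 65 and 72 reads in the libraries labelled knockout and 11, 5 and 8 reads in flox/flox libraries (log2 difference 1.14 ± 0.16, SE, adjusted p = 0.00771 without the filter). Syt17 had 132, 120 and 135 reads in the libraries labelled knockout and 21, 19 and 29 reads in flox/flox libraries (1.11 ± 0.16, adjusted p = 0.00949). The groups were wide apart for both, and the remaining higher gene was Cplx1 (adjusted p = 0.00935). The lymphocyte marker sums given above were also higher in the libraries labelled knockout. Within that group they were lowest in replicate 1, whereas Stx11 was highest there. Among flox/flox libraries, where all were low, the sums and Stx11 were both highest in replicate 1 and lowest in replicate 2. The part of the marked cells in the difference of Stx11 was not tested.

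Doc2b was the lower one. It encodes a calcium-binding protein with double C2 domains that promotes insulin granule fusion in mouse islets, and it had 50, 35 and 44 reads in the libraries labelled knockout and 81, 86 and 94 reads in flox/flox libraries. In FPKM, Doc2b was at 0.55, 0.41 and 0.487 in the libraries labelled knockout and at 1.23, 1.36 and 1.45 in flox/flox libraries. The groups were apart, and without the filter the log2 difference was -0.91 ± 0.16 (SE, adjusted p = 0.0184). Doc2b shares 5.53% of its exonic bases with a gene on the opposite strand, and the strandedness of the libraries is not given in the sources used here. Syt1, the calcium sensor of fast synapses, was at 145, 102 and 113 reads in the libraries labelled knockout and 121, 74 and 94 reads in flox/flox libraries, and the groups overlapped.

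**Figure D5:**
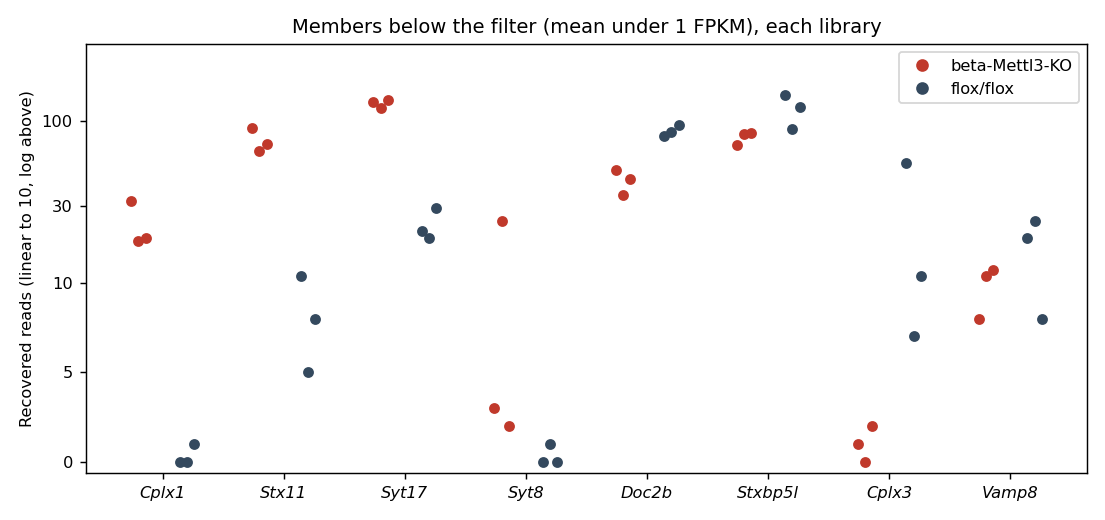
Recovered reads per library (y axis, linear to 10 reads and log above) for genes under the filter of 1 FPKM, β-Mettl3-KO left of flox/flox. Stx11, Syt17 and Cplx1 lie higher and Doc2b lies lower in all 3 libraries labelled knockout, with 35 to 50 reads of Doc2b there and 81 to 94 in flox/flox libraries.

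Other genes of membrane fusion and granule docking, outside the 10 symbol series, gave more lower than higher calls. Of 44 tested, 13 were lower in the libraries labelled knockout and 4 were higher (29.5% and 9.09%, against 17.2% and 16.9% of all tested genes), with a median log2 difference of -0.17. Among 19 other SNAREs and SNARE-recycling genes 6 were lower and 0 higher (median -0.20), and among 25 docking, active-zone and exocyst genes 7 were lower and 4 higher (median -0.09). The count of 13 was 7 without replicate 2 labelled knockout, 5 without replicate 3 labelled knockout, 8 without flox/flox replicate 1 and 6 without flox/flox replicate 3. With own-total scaling 18 of the 44 were higher and 2 lower.

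Napa encodes α-SNAP, which recycles used SNARE complexes, and had 48.8, 48.9 and 45.7 FPKM in the libraries labelled knockout and 72.9, 70.3 and 69.3 FPKM in flox/flox libraries. The groups were apart, with a log2 difference of -0.56 ± 0.06 (SE, adjusted p = 0.00124). Scfd1, the Sly1 partner of syntaxin 5, and Bet1l, a Golgi SNARE, fell by 0.59 ± 0.08 and 0.52 ± 0.07 (adjusted p = 0.00313 and 0.00257). Mlph encodes melanophilin, another Rab27a effector, and had 0.636, 1.16 and 0.882 FPKM in the libraries labelled knockout and 2.36, 3.07 and 2.87 FPKM in flox/flox libraries (-1.24 ± 0.18, adjusted p = 0.00365). It passed the filter only through the flox/flox group.

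The 4 higher genes of these lists were Bsn, Exoc8, Exph5 and Rimbp2. Bsn encodes bassoon, an active-zone scaffold, and had 4.88, 6.13 and 5.94 FPKM in the libraries labelled knockout and 1.90, 2.01 and 2.30 FPKM in flox/flox libraries (log2 difference 1.26 ± 0.11, SE, adjusted p = 0.000665). Rimbp2, which links RIM proteins to calcium channels, had 78.0, 96.2 and 94.7 FPKM in the libraries labelled knockout and 59.7, 61.5 and 61.2 FPKM in flox/flox libraries (0.55 ± 0.09, adjusted p = 0.00604). Both were higher in every library labelled knockout. Exoc8, a subunit of the exocyst, rose by 0.86 ± 0.16 and Exph5, a Rab27 effector, by 0.61 ± 0.12 (adjusted p = 0.00861 and 0.0106).

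Replicates 2 and 3 labelled knockout held the most intestinal transcripts, as the enterocyte sums above show. With both left out, 1 library stood for the group and was assumed to vary like the flox/flox libraries. The log2 differences were then -1.85 for Sytl4, -0.78 for Sytl1, -0.71 for Stx5a and -0.62 for Stxbp2. All other called genes kept their direction, at 1.18 for Syt16, 0.84 for Unc13d, 0.44 for Stx17, -0.64 for Rims3 and -0.62 for Stx16. Syt3 and Vamp4 were smaller than with all libraries, at -0.41 beside -0.55 and -0.30 beside -0.44. The library kept still held more B-cell, T-cell and enterocyte transcripts than any flox/flox library, with sums of 1277, 28.2 and 135 FPKM. That fit therefore does not remove them. Over the fits that left out 1 library each, 12 of the 15 calls passed in every one, and Stx2, Stx4a and Unc13d did not. Sytl4, Sytl1 and Stx5a passed in all 16 alternatives tried.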

How the data were processed

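Islet RNA from 3 libraries labelled β-Mettl3-KO and 3 Mettl3 flox/flox libraries was analysed, and groups and replicate numbers came from the sample titles. The submitters' processing notes name HISAT2 2.0.5, featureCounts 1.5.0-p3, DESeq2 1.16.1 and GRCm38.p6, with no roles given. The authors deposited FPKM per gene, and 0 columns of the table were left unused. The values were multiples of 1 step per library (from the 300 lowest values), and 100% gave whole reads within 0.1, the largest distance being 0.0538. Library sizes as used in the FPKM were 1.13 to 1.17 times a library's own total in the libraries labelled knockout and 0.855 to 0.885 times in flox/flox, equal to a median-of-ratios scaling.

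Genes with a mean of at least 1 FPKM were tested on log2(FPKM + 0.5) in limma 3.58.1 (R 4.3.3, variance trend, two-sided) with Benjamini-Hochberg adjustment, threshold 0.05. Differences on that scale understate the change of low genes. Libraries of 1 group differed by 6.51 to 29.4 times sampling noise. The labels name no animals and do not say whether islets were pooled, and p-values therefore reflect only how these libraries vary, which may be technical. Alternatives were other pseudocounts, filters, scalings, models and left-out libraries.

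Genes always named were Stx1a, Snap25, Vamp2, Syt7, Sytl4, Unc13a, Rims2, Cplx1 and Doc2b. Up to 14 members past the threshold per direction were added, and up to 4 genes per direction from the lists of other fusion and docking genes. Members, lists and rule were chosen with earlier results of these data known. Some members that were counted are not reported here by name.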

Additional observations from a re-analysis of the deposited data

How the results depend on the processing

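In the libraries labelled knockout 3 genes of these families were higher and 12 lower as deposited, against 2446 and 2489 of all tested genes and 4 and 13 of the other fusion and docking genes. With no filter 6 of the families' genes were higher, and with a mean of at least 5 FPKM 1, with 1247 of all genes and 2 of the other fusion genes. With own-total scaling the counts were 22 higher and 4 lower for the families, 7550 and 716 for all genes, and 18 and 2 for the other fusion genes. Without replicates 2 and 3 labelled knockout they were 0 and 4, 771 and 546, and 2 and 3. Leaving out 1 library at a time gave 2 to 4 higher and 10 to 13 lower for the families, 1370 to 2106 and 1410 to 2130 for all genes, and 4 to 5 and 5 to 11 for the other fusion genes. The counts for all genes were lowest without replicate 3 labelled knockout.

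Own-total scaling turned 9 named genes positive: Rims2 (0.31), Snap25 (0.32), Stx1a (0.11), Stx2 (0.04), Stx4a (0.06), Syt7 (0.31), Unc13a (0.16), Vamp2 (0.20) and Vamp3 (0.08), the shift of 0.36 in the median of all genes being part of its construction. Quantile normalization put Snap25 and Syt7 at 0.02, and the cause was not tested. Both pseudocounts and limma voom on the recovered reads, chosen after seeing the data, kept all 15 calls. The planned quasi-likelihood count test was not run, because the deposited values are FPKM.

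With replicate number as a block, 5 genes of the families were higher and 11 lower (Cplx2, Sytl5 and Unc13b gained, Stx2 and Stx4a lost), and 2313 and 2346 of all genes. The numbers did not pair the libraries: same-numbered libraries deviated together at correlations of 0.0811, 0.0751 and 0.0423, although each correlated best with its own number, a hint from the data and not the design. Precision was limited for genes of few reads, such as Cplx1 and Unc13c.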

Other observations

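Syt8 and Cplx3, picked after their values were seen, had few reads and most of them in 1 library. Syt8 had 3, 24 and 2 reads in the libraries labelled knockout and 0, 1 and 0 in flox/flox libraries. The enterocyte sums of those libraries labelled knockout were 135, 863 and 449 FPKM in the same order. The highest values fell in the same replicate, while the other 2 replicates did not keep the same order. The part of enterocytes in Syt8 was not tested. Cplx3, a complexin known from retinal ribbon synapses, had 1, 0 and 2 reads in the libraries labelled knockout and 55, 7 and 11 in flox/flox libraries. Most of its reads were in flox/flox replicate 1.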
